A study of Mus musculus with 8 samples.

Results

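The 7 genes described here, Gbp2, Gbp3, Gbp4, Gbp5, Gbp6, Gbp7 and Gbp9, encode guanylate-binding proteins. They were taken by their symbols from the 55487 gene IDs counted in hippocampal single cells, and each symbol named 1 gene. Of the other Gbp genes in the files, Gbp2b, Gbp8, Gbp10 and Gbp11 were described only by their position or counts, and Gbp2b also by its promoter window. The choice of the genes used no measured value, but it was made with earlier results of these data known.

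The hippocampal cells came from mice whose Foxp3-expressing regulatory T cells carry the diphtheria toxin receptor (genotype Foxp3-DTR+) and from littermates without it (Foxp3-DTR-). Both groups received diphtheria toxin, so the controls were exposed to the toxin as well, and the design addressed how the hippocampus changes after regulatory T cells are removed. Live cells negative for CD45 and Thy1 were sorted after perfusion, which removes microglia and T cells, and the cells of 2 mice were pooled into each of the 2 libraries. With 1 library per genotype there is no replicate check: every interval below is a 95% interval for counting error only, and a difference between the libraries cannot be told apart from a difference between 2 pools of mice or 2 library preparations.

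Guanylate-binding proteins are large GTPases that cells make in response to interferons, above all interferon gamma. They assemble on the membranes of intracellular bacteria and parasites and take part in opening the vacuoles that hold them and in activating inflammasomes. Most cells hold little of their RNA at rest, so it is widely read as a sign of interferon signalling. Brain endothelial cells line the vessels and meet circulating cytokines first.

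In the mouse genome the genes lie in 2 clusters. In the GENCODE M21 annotation of GRCm38, chromosome 3 carries Gbp5 (chr3:142493978-142522344), Gbp7 (chr3:142530342-142550149), Gbp3 (chr3:142560026-142573209) and Gbp2 (chr3:142620602-142638008), all on the plus strand. Chromosome 5 carries Gbp9 (chr5:105077630-105139539), Gbp4 (chr5:105115767-105139586) and Gbp6 (chr5:105270702-105293698), all on the minus strand. All 7 are annotated as protein-coding. Gbp4 and Gbp9 overlap each other over 23773 bases on the same strand, and both overlap Gbp8. Gbp6 lies in the same span as the gene model Gm43302, which shares 88.7% of the 50-base words in the last 500 bases of Gbp6 transcripts. The count of Gbp6 is therefore uncertain, while the 3' ends of the other members shared at most 6.53% of their words with any 1 other Gbp gene.

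Promoter windows from RefSeq (build GRCm38.p6, 250 bases before to 50 bases after the start) were at hand for 4 members, all of the chromosome 3 cluster, and are shown because these genes were higher together in the comparison below. Capitals mark matches to GAAANNGAAA or its reverse complement TTTCNNTTTC, the core of the interferon-stimulated response element (ISRE) bound by Irf factors, and to TTCNNNGAA, the core of the gamma-activated site (GAS). The 2 ISRE-like matches of Gbp3 overlap and appear as 1 run, and no ISRE-like match overlapped a GAS-like match in these windows.

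Gbp2 (chr3:142620413-142620712): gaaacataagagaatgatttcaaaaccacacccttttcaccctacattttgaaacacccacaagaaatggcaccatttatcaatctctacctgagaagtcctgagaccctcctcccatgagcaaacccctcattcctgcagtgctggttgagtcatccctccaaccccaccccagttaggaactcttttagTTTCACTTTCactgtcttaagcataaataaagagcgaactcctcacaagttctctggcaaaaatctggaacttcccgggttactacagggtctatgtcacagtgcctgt

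Gbp3 (chr3:142559794-142560093): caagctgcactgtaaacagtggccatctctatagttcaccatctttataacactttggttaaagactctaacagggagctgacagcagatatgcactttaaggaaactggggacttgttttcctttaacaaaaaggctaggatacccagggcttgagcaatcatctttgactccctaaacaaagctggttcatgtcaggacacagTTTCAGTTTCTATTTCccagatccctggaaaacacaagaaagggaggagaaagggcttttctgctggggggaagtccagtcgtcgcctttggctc

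Gbp5 (chr3:142496684-142496983): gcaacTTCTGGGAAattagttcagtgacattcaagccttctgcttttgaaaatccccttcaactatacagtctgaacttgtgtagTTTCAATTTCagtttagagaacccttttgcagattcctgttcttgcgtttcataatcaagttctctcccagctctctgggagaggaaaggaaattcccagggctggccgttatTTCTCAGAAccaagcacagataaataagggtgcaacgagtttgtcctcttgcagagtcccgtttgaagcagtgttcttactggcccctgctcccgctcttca

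Gbp7 (chr3:142530086-142530385): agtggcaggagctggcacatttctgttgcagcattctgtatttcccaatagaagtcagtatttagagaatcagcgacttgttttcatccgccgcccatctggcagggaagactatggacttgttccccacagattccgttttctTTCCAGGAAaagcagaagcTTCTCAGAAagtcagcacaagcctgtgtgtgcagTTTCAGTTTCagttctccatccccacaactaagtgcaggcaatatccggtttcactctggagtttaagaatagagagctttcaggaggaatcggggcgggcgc

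All sequences are on the plus strand, 5' to 3'. Each of the 4 windows held the ISRE-like word, which was present in 3.44% of all 32851 promoter windows of the same length. Counted from the start, with negative numbers before it, the match began at -59 in Gbp2, -165 in Gbp5 and -53 in Gbp7, and at -45 and -39 in Gbp3. The GAS-like word was present in 8.30% of all windows, 2 times each in Gbp5 and Gbp7 and not in these windows of Gbp2 and Gbp3. A second RefSeq start of Gbp3 (chr3:142560106-142560405) held neither word. The window of Gbp2b, which lies in the same cluster, held the ISRE-like word from -137 and no GAS-like word. Gbp2b had no UMI in any kept cell, so the ISRE-like word was not limited to genes with counts. These are matches of letters and were not tested as binding sites.

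Cells were placed in 6 classes by 1 marker each. A class needed at least 2 UMIs of its marker and at least 80% of the cell's UMIs over the 6 markers. Cldn5 gave 474 endothelial cells in the Foxp3-DTR- and 350 in the Foxp3-DTR+ library. Rgs5 gave 189 and 150 pericytes, Aqp4 623 and 656 astrocytes, Pdgfra 653 and 793 oligodendrocyte precursors, Mog 3708 and 2575 oligodendrocytes and Dcn 56 and 42 fibroblasts. Each class detected all 6 markers of its own list, the defining one included, in both libraries. The fibroblast class also carried Vtn, a gene of the pericyte list, at 12074 and 11757 CPM. Rgs5 was at 0 there, but the class rule itself limits Rgs5. The rest of the pericyte list stood at 230 and 216 CPM (Pdgfrb), 36.7 and 16.6 CPM (Kcnj8), 20.9 and 24.9 CPM (Abcc9) and 0 (Higd1b). The labels call these cells neurons and glia, whereas endothelial cells are neither. The libraries held 53484704 and 35814655 UMIs, with a median of 6003 and 4509 UMIs in the 6863 and 5691 cells kept. They shared 18 cell barcodes, 15 of them among kept cells.

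Gbp RNA was concentrated in endothelial cells. Levels are UMIs per 1000000 UMIs of the class (CPM). The 7 genes together reached 719 CPM (667 to 773) in endothelial cells of the Foxp3-DTR- library and 1206 CPM (1123 to 1293) in those of the Foxp3-DTR+ library. Of the 1798 Gbp UMIs found in the 6 classes, 1516 lay in endothelial cells (84.3%). Over all kept cells, those without a class included, they held 1516 of 2030 Gbp UMIs (74.7%), although they made up 6.91% and 6.15% of the cells.

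Pericytes, which wrap the same capillaries, stood at 58.7 CPM (37.6 to 87.4) and 31.6 CPM (13.7 to 62.4) in the Foxp3-DTR- and Foxp3-DTR+ libraries. Fibroblasts stood at 41.9 CPM (18.1 to 82.5) and 82.9 CPM (39.8 to 153), from 8 and 10 UMIs. Where in the tissue they lay was not measured, and their class also carried choroid plexus markers at 6545 and 33.2 CPM. Astrocytes, whose endfeet cover the vessels, held 19.6 CPM (14.8 to 25.5) and 26.8 CPM (20.8 to 34.1). The order of pericytes and fibroblasts differed between the libraries, and their intervals overlapped in both. Oligodendrocyte precursors followed at 6.19 CPM (3.88 to 9.38) and 9.83 CPM (6.88 to 13.6). Mature oligodendrocytes, the largest class, were lowest at 0.933 CPM (0.646 to 1.30) and 0.833 CPM (0.502 to 1.30). Endothelial cells lay above every other class with intervals that did not overlap, astrocytes above precursors and precursors above mature oligodendrocytes in both libraries. The level in endothelial cells was 12.2-fold (8.16 to 19.2) that of pericytes in the Foxp3-DTR- library and 38.1-fold (19.2 to 88.6) in the Foxp3-DTR+ library. Against mature oligodendrocytes the ratio was 770-fold (546 to 1121) and 1447-fold (920 to 2416).

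**Figure D1:**
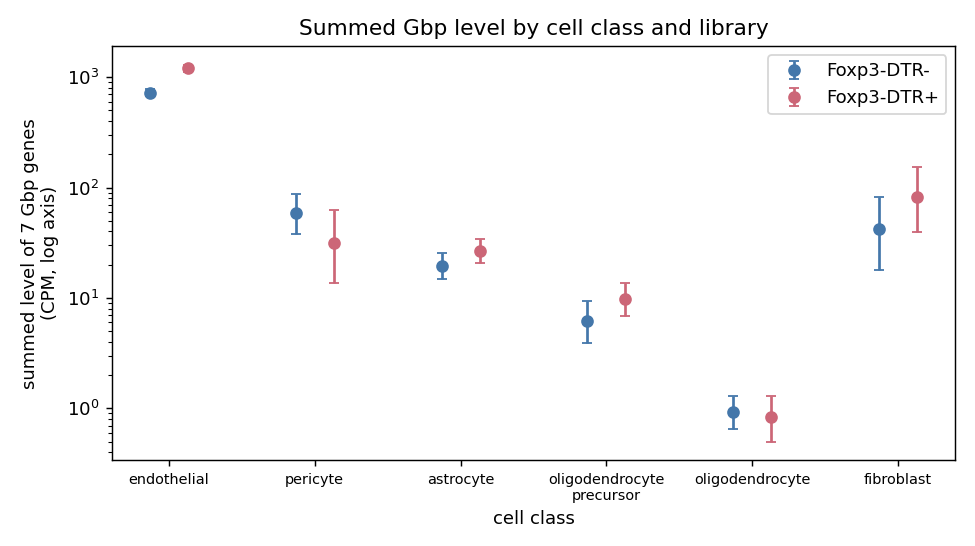
Summed level of the 7 Gbp genes in CPM on a log axis for each cell class, with points for the Foxp3-DTR- library (blue) and the Foxp3-DTR+ library (red) and bars for the 95% Poisson interval, which covers counting error only. Endothelial cells stand at 719 and 1206 CPM, above all other classes, and mature oligodendrocytes stand lowest at 0.933 and 0.833 CPM.

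The members differed in how closely they kept to endothelial cells. Gbp4 had 266 of its 274 class UMIs in endothelial cells (97.1%), Gbp9 had 134 of 139 (96.4%) and Gbp5, known for its part in inflammasome assembly, had 212 of 223 (95.1%). These 3 overlapped within counting error in each library, at 96.5%, 95.5% and 92.2% in the Foxp3-DTR- library and 97.7%, 97.2% and 97.5% in the Foxp3-DTR+ library. Gbp2, which coats the vacuoles of Toxoplasma, had 244 of 275 (88.7%), and Gbp3 had 222 of 271 (81.9%). Gbp7 was the most widely found of the members with over 20 UMIs, with 427 of 597 (71.5%) in endothelial cells. Gbp6 had 19 UMIs in all classes, of which 11 were endothelial.

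Outside endothelial cells, most Gbp UMIs of astrocytes and oligodendrocyte precursors were Gbp7. In astrocytes Gbp7 gave 90 of 121 Gbp UMIs, or 74.4% (65.6 to 81.9), and in oligodendrocyte precursors 40 of 58, or 69.0% (55.5 to 80.5). In endothelial cells it gave 28.2% (25.9 to 30.5). The make-up thus differed between these glia and endothelial cells beyond counting error, in each library as well as in both together: Gbp7 gave 76.4% and 72.7% of Gbp UMIs in astrocytes, 68.2% and 69.4% in precursors, and 27.1% and 29.1% in endothelial cells. In mature oligodendrocytes Gbp7 gave 11 of 34 Gbp UMIs, or 32.4% (17.4 to 50.5), in the Foxp3-DTR- library and 11 of 19, or 57.9% (33.5 to 79.7), in the Foxp3-DTR+ library. In both together it gave 22 of 53, or 41.5% (28.1 to 55.9), below astrocytes beyond counting error. By library, its interval lay clear of that of astrocytes only in the Foxp3-DTR- library. It lay clear of that of endothelial cells only in the Foxp3-DTR+ library. Endothelial markers in astrocytes summed to 14.97 and 14.6 CPM, against 20003 and 22040 CPM in endothelial cells.

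Gbp3 followed Gbp7 in precursors, at 0.844 and 3.002 CPM from 3 and 11 UMIs. Gbp4, Gbp5, Gbp6 and Gbp9 had few UMIs outside endothelial cells, with 4 at most for any 1 gene and class (Gbp5 in mature oligodendrocytes of the Foxp3-DTR- library). Gbp9 was not detected in astrocytes or precursors of either library. The floor of 3 counts, used in place of a count of 0, equals 1.07 and 1.22 CPM in astrocytes. Gbp2 was detected in pericytes at 22.0 CPM (10.1 to 41.8) and 11.9 CPM (2.45 to 34.7), from 9 and 3 UMIs. It was not detected in precursors, where the same floor was 0.844 and 0.819 CPM.

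**Figure D2:**
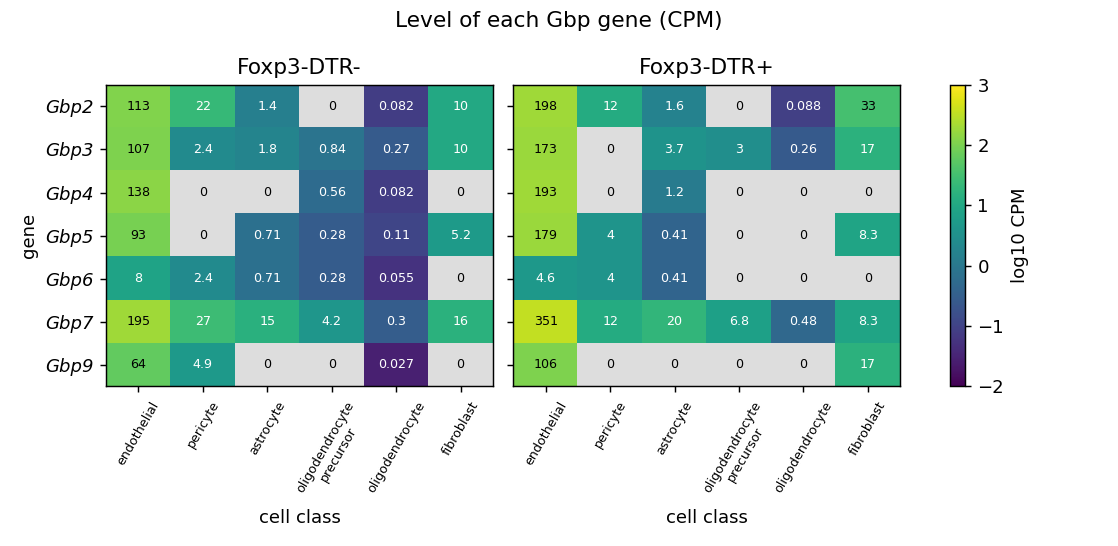
Level of each Gbp gene (rows) in each cell class (columns), with the CPM printed in each tile and the colour giving log10 CPM, for the Foxp3-DTR- library (left) and the Foxp3-DTR+ library (right). Grey tiles are genes with 0 UMIs in that class. The endothelial column is the highest for every gene, with overlapping intervals only for Gbp6, and Gbp7 is the member with UMIs in all classes of both libraries.

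The comparison of the genotypes turned on the endothelial cells, and in them 6 of the 7 members were higher in the Foxp3-DTR+ library. The summed level was 1.68-fold higher (1.52 to 1.86), a log2 ratio of 0.75 (0.60 to 0.89). The same ratio was 0.68 to 0.90 under the other class rules, filters, weightings and scalings tried, and 0.75 without the cells whose barcodes the libraries shared. The endothelial markers themselves differed far less between the libraries, at 20003 and 22040 CPM.

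Gbp5 had the highest ratio of the 6, at 93.4 CPM (75.5 to 114) in Foxp3-DTR- and 179 CPM (149 to 215) in Foxp3-DTR+ endothelial cells, a log2 ratio of 0.94 (0.54 to 1.35). Gbp7, which has been linked to the assembly of the phagocyte oxidase, stood at 195 CPM (168 to 224) and 351 CPM (307 to 400), a log2 ratio of 0.85 (0.57 to 1.13). Gbp2 stood at 113 CPM (93.5 to 136) and 198 CPM (165 to 235), a log2 ratio of 0.80 (0.43 to 1.18). For these 3 genes the intervals of the 2 libraries did not overlap. Gbp9 stood at 63.6 CPM (49.0 to 81.2) and 106 CPM (83.0 to 134), a log2 ratio of 0.74 (0.23 to 1.25). Gbp3 stood at 107 CPM (88.1 to 130) and 173 CPM (143 to 208), a log2 ratio of 0.69 (0.30 to 1.08). Both also lay apart in the 2 libraries, Gbp9 by a narrow margin. Gbp4 had the smallest ratio, at 138 CPM (116 to 163) and 193 CPM (161 to 230), where the intervals overlapped and the log2 ratio was 0.48 (0.12 to 0.84). Gbp6 was near the limit of detection in both libraries, with 8 and 3 UMIs, and its log2 ratio of -0.80 (-3.35 to 1.26) left the direction undetermined at this depth.

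Of the 7 members, 6 had the 20 UMIs over both libraries set as the minimum for a ratio, and they are the ones counted here. None of them was 2-fold higher in the Foxp3-DTR+ library, a size that 2.57% of the 7664 genes with enough UMIs reached. After cells were thinned to 2000 UMIs 4 of the 6 were, but no share of all genes is given for thinned cells. A size of 1.5-fold was reached by 5 of the 6, all but Gbp4, where 10.2% of all genes reached it. All 6 lay above equal levels, as did 53.8% of all genes. The median log2 ratio of the 6 was 0.77, and that of all 7664 genes was 0.03. With 1 library per genotype no test stands behind these counts.

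**Figure D3:**
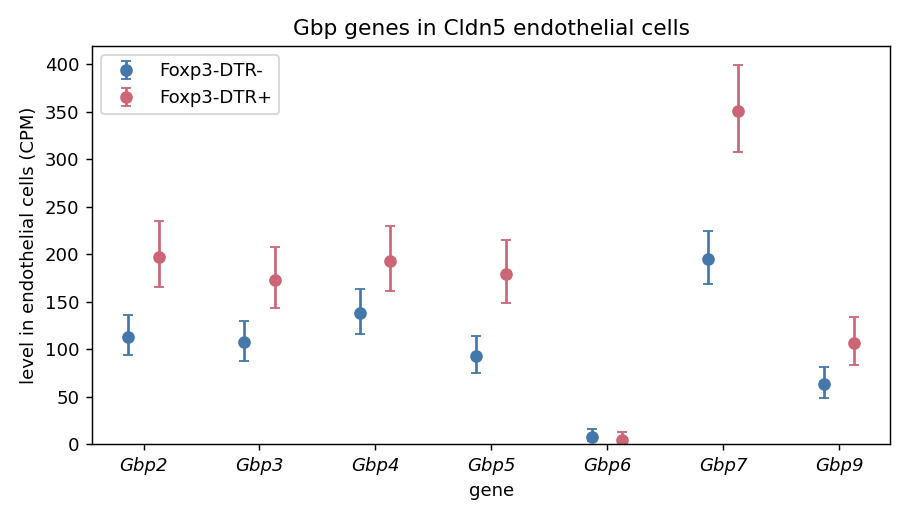
Level of each of the 7 Gbp genes in Cldn5 endothelial cells, in CPM, for the Foxp3-DTR- library (blue) and the Foxp3-DTR+ library (red), with 95% Poisson intervals for counting error. Of the 7 genes, 6 are higher in the Foxp3-DTR+ library, from Gbp4 (138 and 193 CPM) to Gbp7 (195 and 351 CPM), while Gbp6 lies near 0 in both.

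More endothelial cells of the Foxp3-DTR+ library held Gbp RNA. At least 1 Gbp UMI was found in 267 of 474 cells of the Foxp3-DTR- library, or 56.3% (51.7 to 60.8), and in 239 of 350 cells of the Foxp3-DTR+ library, or 68.3% (63.1 to 73.1). The latter cells were shallower, with a median of 1642.5 UMIs against 2002. With cells under 2000 UMIs left out and the others reduced at random to 2000 UMIs each (thinned), the shares were 120 of 237 cells, 50.6% (44.1 to 57.2), and 99 of 124 cells, 79.8% (71.7 to 86.5). That step left out 237 and 226 cells. In mature oligodendrocytes, taken as the low reference, the unthinned shares were 0.755% (0.502 to 1.09) and 0.466% (0.241 to 0.813) at median depths of 7659 and 6398 UMIs. The endothelial shares thus lay far above the reference in cells of lower depth.

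Cells with UMIs of several members were also more frequent in the Foxp3-DTR+ library. A higher level of each gene raises this share by itself, and a rise beyond that was not tested. Among thinned endothelial cells, 61 of 237 (25.7%, 20.3 to 31.8) held UMIs of 2 or more members in the Foxp3-DTR- library and 56 of 124 (45.2%, 36.2 to 54.3) in the Foxp3-DTR+ library. Cells with 4 or more members were 5 of 237 (2.11%, 0.688 to 4.85) and 15 of 124 (12.1%, 6.93 to 19.2). The gap was smaller over all endothelial cells without thinning. There 29.5% and 40.9% held 2 or more members, and 23 of 474 (4.85%) and 40 of 350 (11.4%) held 4 or more. With Gbp6 left out, the members form 15 pairs. In 14 pairs of the Foxp3-DTR- library and 12 of the Foxp3-DTR+ library, the partner was found more often in cells with the other gene than in cells without. The exceptions were Gbp3 with Gbp9 in the former library, and Gbp2 with Gbp9, Gbp3 with Gbp5 and Gbp7 with Gbp9 in the latter. Any size of difference counted, such as Gbp7 in 44.8% of cells with Gbp3 and 42.1% of those without in the Foxp3-DTR+ library. Pairs of other genes were not counted, so no background share stands beside these counts. The pair of Gbp4 and Gbp7, which lie on different chromosomes, was chosen after its values were seen. Gbp7 was found in 18 of 38 cells with a Gbp4 UMI (47.4%) and in 18.6% of those without in the Foxp3-DTR- library, and in 19 of 31 (61.3%) and 36.6% in the Foxp3-DTR+ library.

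The RNA was spread over many cells. The 5 richest endothelial cells held 11.8% and 11.1% of the class's Gbp UMIs, with at most 22 and 20 UMIs in a cell. Without these 5 cells per library the summed log2 ratio was 0.77.

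**Figure D4:**
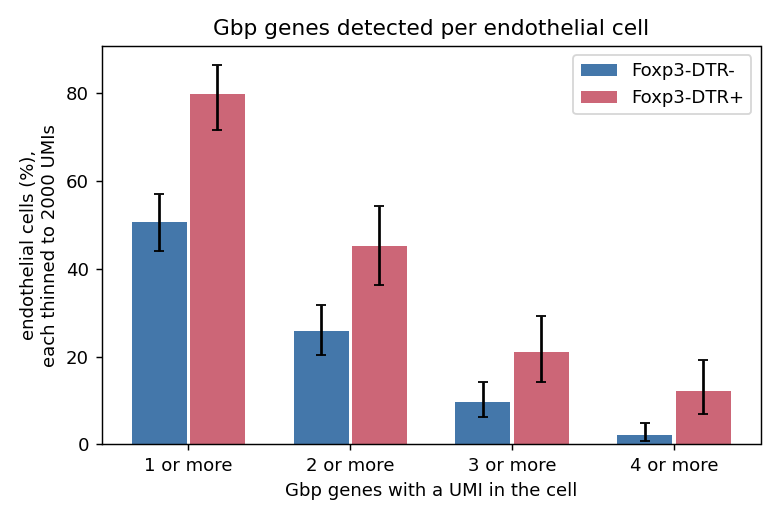
Percentage of endothelial cells, each thinned to 2000 UMIs, with UMIs of at least 1, 2, 3 or 4 of the 7 Gbp genes, for the Foxp3-DTR- library (blue, 237 cells) and the Foxp3-DTR+ library (red, 124 cells). Bars start at 0 and error bars are 95% Clopper-Pearson intervals for counting error. The red bars are higher at each step, from 79.8% against 50.6% for 1 or more genes to 12.1% against 2.11% for 4 or more. Over all endothelial cells without thinning, not drawn, these shares were 68.3% against 56.3% and 11.4% against 4.85%.

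Along the vascular tree, capillary cells (marked by Mfsd2a, Spock2, Slc16a1 and Tfrc) made up most endothelial cells, 274 and 215. Their summed Gbp level was 775 CPM (706 to 849) and 1121 CPM (1019 to 1230), a log2 ratio of 0.53 (0.34 to 0.72). Endothelial cells whose segment was not set, 156 and 125, stood at 641 CPM (554 to 739) and 1388 CPM (1240 to 1548), a log2 ratio of 1.11 (0.85 to 1.38). Both groups were higher in the Foxp3-DTR+ library, and the intervals of the 2 ratios did not overlap. Arterial (9 and 4) and venous cells (35 and 6) were too few for a comparison. In the endothelial class the capillary marker list summed to 2981 and 3380 CPM. The venous list reached 868 and 824 CPM and the arterial list 275 and 306 CPM. How far these unequal levels shaped the segment counts was not tested.

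Markers of other cells in the endothelial class were examined beside these values. All 7 markers of microglia and macrophages, Ptprc (CD45) among them, were at 0 in both libraries, and T cell markers had 0 and 1 UMI. Pericyte markers summed to 44.7 and 38.0 CPM, astrocyte markers to 228 and 207 CPM and mature oligodendrocyte markers to 942 and 1039 CPM. Neuroblast markers stood at 9.94 and 149 CPM, choroid plexus markers at 1751 and 35.0 CPM and erythrocyte markers at 23.9 and 92.8 CPM. All 4 neuroblast markers were detected in the Foxp3-DTR+ library, but 85 of their 98 UMIs lay in 2 cells, and 1635 of 1761 choroid plexus UMIs in the Foxp3-DTR- library lay in 1 cell. Erythrocyte UMIs were spread more widely, with 12 of 61 in the richest cell of the Foxp3-DTR+ library, and their part in the result was not tested. Without the cells that held 10 or more UMIs of any of these 3 lists the summed log2 ratio was again 0.75.

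In the other classes no difference between the libraries was detectable at this depth. The log2 ratio of the summed level was -0.89 (-2.26 to 0.31) in pericytes, 0.45 (-0.09 to 0.996) in astrocytes, 0.67 (-0.14 to 1.501) in oligodendrocyte precursors and -0.16 (-1.06 to 0.69) in mature oligodendrocytes. Fibroblasts, with 18 Gbp UMIs in all, were below the minimum. Gbp7 was the only member with 20 UMIs in any of these classes. It stood at 14.97 and 19.5 CPM in astrocytes, a log2 ratio of 0.38 (-0.25 to 1.02), and at 4.22 and 6.82 CPM in precursors, a log2 ratio of 0.69 (-0.29 to 1.72). The value in precursors passed 1.5-fold, as did 5.15% of the 12756 genes counted there. In mature oligodendrocytes Gbp7 stood at 0.302 and 0.482 CPM, a log2 ratio of 0.68 (-0.67 to 2.02), where 5.84% of 14442 genes passed 1.5-fold. With doublets kept the ratio of Gbp7 in this class was -0.30. The intervals of the summed ratio overlapped that of endothelial cells (0.60 to 0.89) in astrocytes, precursors and mature oligodendrocytes and did not in pericytes, where 24 and 8 UMIs were counted. The pericyte class also differed in make-up between the Foxp3-DTR- and Foxp3-DTR+ libraries. Smooth muscle markers stood at 739 and 150 CPM there, and choroid plexus markers at 3616 and 19.8 CPM. Their part in the pericyte ratio was not tested.

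The genes around the guanylate-binding proteins in the interferon pathway were taken from 7 lists with 54 genes, of which 46 had 20 UMIs in endothelial cells. In the Foxp3-DTR+ library 30 of the 46 were above equal levels, as were 53.8% of all genes, while 10 were at least 1.5-fold higher and 4 at least 1.5-fold lower, where 10.2% and 8.43% of all genes were. None was 2-fold higher. Oas1a, with 19 and 3 UMIs, was 2-fold lower, where 2.54% of all genes were.

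The immunity-related GTPases, the other family of interferon-inducible GTPases that act on pathogen vacuoles, came closest to the Gbp genes. All 7 were above equal levels and 6 were at least 1.5-fold higher, with a median log2 ratio of 0.65. Iigp1 stood at 208 and 322 CPM (log2 ratio 0.63, 0.35 to 0.92), Igtp at 113 and 178 CPM (0.65, 0.27 to 1.04) and Ifi47 at 107 and 158 CPM (0.56, 0.16 to 0.96).

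Antigen processing and MHC class I genes had a median log2 ratio of 0.39, with 8 of 10 above equal levels and 2 at least 1.5-fold higher. B2m, the light chain of MHC class I, stood at 1069 and 1702 CPM (0.67, 0.55 to 0.79). H2-K1 stood at 911 and 1204 CPM (0.40, 0.26 to 0.54), while H2-D1 stood at 1226 and 1299 CPM (0.08, -0.04 to 0.21). The intervals of the 2 class I heavy chains did not overlap, but reads of these near-identical genes may be split between them, so their separate counts are uncertain.

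The type I interferon list, which holds genes induced by that interferon, had a median of 0.18 over 12 genes with enough UMIs, 1 of them at least 1.5-fold higher. Isg15, a ubiquitin-like modifier, stood at 726 and 905 CPM (0.32, 0.16 to 0.48) and Bst2, which tethers virus particles, at 431 and 616 CPM (0.51, 0.31 to 0.71). Xaf1 stood at 225 and 205 CPM (-0.13, -0.45 to 0.18).

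Upstream genes did not share the direction as a group. Of the receptors and kinases, 2 of 6 were above equal levels and the median was -0.28. Ifnar2 stood at 293 and 312 CPM (0.09, -0.18 to 0.35), Ifnar1 at 219 and 199 CPM (-0.13, -0.46 to 0.18) and Jak1 at 85.5 and 63.9 CPM (-0.42, -0.99 to 0.13). Ifng itself had no UMI in endothelial cells of either library. Of the transcription factors, Irf7 stood at 130 and 219 CPM (0.75, 0.40 to 1.10), Irf1 at 134 and 158 CPM (0.24, -0.15 to 0.62) and Irf9 at 108 and 123 CPM (0.18, -0.25 to 0.61). Over the 6 factors counted the median was 0.09. Among the feedback inhibitors, Socs3 was lower in the Foxp3-DTR+ library, at 116 and 62.3 CPM (-0.90, -1.45 to -0.38), while Usp18 (58.7 and 54.7 CPM) and Socs1 (23.9 and 18.2 CPM) had intervals that included equal levels. The chemokines that draw T cells rested on few cells and give no level for the class. Cxcl11 had 62 UMIs in 15 cells and 43 UMIs in 6 cells, Cxcl10 had 25 UMIs in 9 cells and 20 UMIs in 4 cells, and Cxcl9 had 0 UMIs and 18 UMIs in 1 cell.

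**Figure D5:**
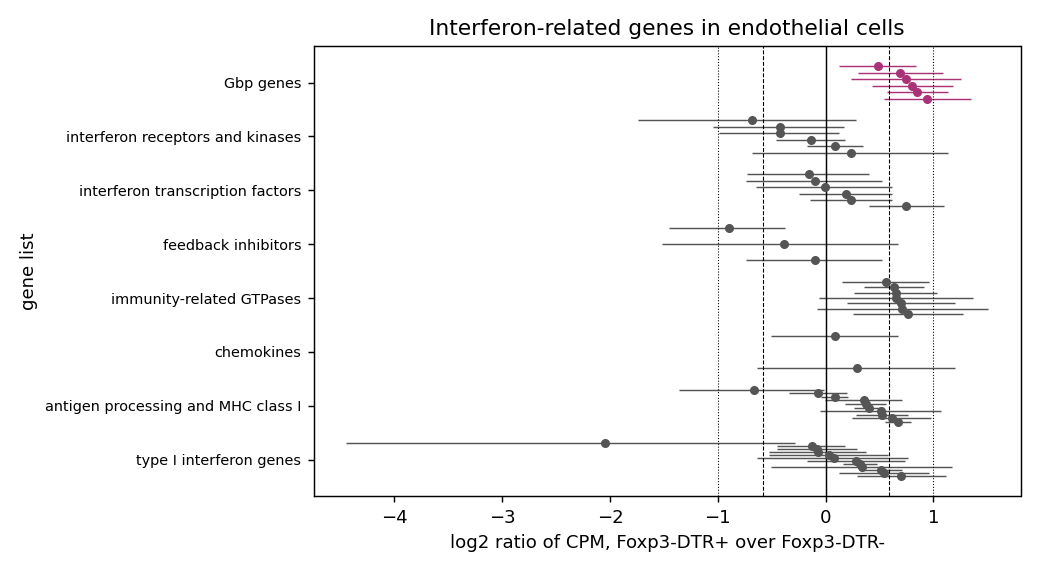
Log2 ratio of CPM, Foxp3-DTR+ over Foxp3-DTR-, in endothelial cells for the Gbp genes (purple) and 7 lists of interferon-related genes (grey), with 95% intervals for counting error; dashed lines mark 1.5-fold and dotted lines 2-fold. The 6 Gbp genes lie between 0.48 and 0.94 and the 7 immunity-related GTPases between 0.56 and 0.76, while receptors, kinases and feedback inhibitors lie around or below 0.

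Single endothelial cells with Gbp RNA also held more RNA of the related GTPases, within each library. Among thinned cells, the immunity-related GTPases were 5.36-fold higher (3.90 to 7.51) in cells with a Gbp UMI than in cells without in the Foxp3-DTR- library, and 4.16-fold (2.47 to 7.54) in the Foxp3-DTR+ library. Genes of the type I interferon list were 1.96-fold (1.71 to 2.25) and 1.82-fold (1.43 to 2.36) higher, and antigen processing genes 1.40-fold (1.28 to 1.52) and 1.48-fold (1.29 to 1.72) higher. Transcription factors were 1.70-fold (1.32 to 2.20) and 1.66-fold (1.06 to 2.74) higher. Receptors and kinases (0.993-fold and 0.784-fold) had intervals that included equal levels. Of the endothelial markers other than Cldn5, the intervals of Pecam1, Flt1 and Ly6c1 included equal levels in both libraries. Slco1a4 was 1.30-fold higher (1.12 to 1.51) in cells with a Gbp UMI in the Foxp3-DTR- library, and Itm2a was at 0.702-fold (0.613 to 0.805) in the Foxp3-DTR+ library. The cells were of equal depth after thinning, but they were chosen by their Gbp UMIs, so these values describe the cells and compare no conditions.

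The genes whose pattern over the 6 classes and 2 libraries was most like that of the summed Gbp level were Rnf213 (Pearson r = 0.984 over 12 values of log2 CPM), Nmi (0.981), Igtp (0.977), H2-K1 (0.977) and Psmb8 (0.976), out of 11787 genes. The 12 values come from 2 libraries and are governed by the endothelial class, so the coefficients are a description. Within endothelial cells the genotype ratios of these genes ran from 0.06 (-0.53 to 0.64) for Rnf213 to 0.65 for Igtp.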

How the data were processed

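Both hippocampal libraries were analysed. The authors deposited matrices of unnormalised UMI counts (genes by cell barcodes), made with Cell Ranger 6.1.0 per the file headers, and the build is mm10, per the submitters' processing notes. The labels name a 3' kit, so counts come from transcript ends. The settings by which the authors' counting assigned reads shared between overlapping or similar Gbp genes are not given in the sources used here. Symbols on several gene IDs (114) were summed. Cells needed at least 500 genes and under 15% mitochondrial UMIs, and 242 of 7105 and 158 of 5849 cells called by Scrublet in Scanpy 1.11.5 were removed. Classes, CPM (UMIs summed over a class, per 1000000) and thinning to 2000 UMIs (seed 0) are as in the report. Intervals are exact Poisson for CPM, Clopper-Pearson for shares and conditional binomial for ratios, at 95%. Only the ratio interval was run on simulated data. Those data were drawn as Poisson sums, which the interval itself assumes, so the run cannot show how it behaves when UMIs cluster in cells. All intervals cover counting error only. A count of 0 was set to a floor of 3 counts. A ratio needed 20 UMIs over both libraries. No p-value was computed, since each genotype is 1 library. All 7 members were named, up to 3 genes of each list by UMIs in endothelial cells, and the 5 genes most like the summed level by Pearson r of log2(CPM + 10) among genes with 200 UMIs. Irgm1, Irgm2, Tgtp1, Tgtp2 and other listed genes enter as counts. Single values of some listed genes are not reported here. The members, classes and lists were chosen with earlier results of these data known. Gene positions come from GENCODE M21, matched by gene ID (55141 of 55487). The meningeal T cell libraries were not used here.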

Additional observations from a re-analysis of the deposited data

How the results depend on the processing

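The summed endothelial log2 ratio stayed above 0 in all 12 alternatives, of which 2 (shared barcodes, cells with markers of other types) were chosen after seeing the data. It ranged from 0.68 to 0.90, the latter with cells thinned to 2000 UMIs. The number of members at least 2-fold higher, 0 of 6 as reported, was 1 with a marker of at least 1 UMI and no other marker, 1 with Leiden clusters, 2 with at least 1000 genes, 4 after thinning, and 5 under a 1.5-fold rule. It was 0 under the other 10 alternatives. No share of all genes is given beside the 2-fold counts of these alternatives, so they cannot be set against a background. Thinning moved the endothelial shares to 50.6% and 79.8%, the astrocyte shares to 3.58% and 3.86%, the Foxp3-DTR+ precursor share to 1.46%, and the oligodendrocyte shares to 0.245% and 0.0800% with a summed log2 ratio of -1.62. The Foxp3-DTR+ endothelial share was 81.3% with at least 1000 genes. Without the 5 richest cells per class, the shares were 2.07% in Foxp3-DTR+ pericytes and 0% and 2.70% in fibroblasts. Thinning leaves fewer UMIs and only deeper cells. The cause of the other moves was not tested. The sign of the oligodendrocyte ratio, never separable from 0 in the report, differed under 2 alternatives, that of Gbp7 in the same class under 2 (its log2 ratio ranged from -0.30 to 1.55) and that of Gbp7 in astrocytes under 1. Scaling by the median ratio shifted endothelial ratios by -0.04. No paired analysis was possible because each genotype is 1 library. Classes other than endothelial cells gave between 8 and 66 Gbp UMIs per library, which limits the precision of their ratios.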

Other observations

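Gbp11, annotated as a polymorphic pseudogene on chromosome 5 (chr5:105323042-105346472), had most of its UMIs in mature oligodendrocytes, the class with the most UMIs in all. Of its 61 UMIs in the Foxp3-DTR- library and 33 in the Foxp3-DTR+ library, 59 and 32 lay in mature oligodendrocytes. None lay in endothelial cells, where the floor of 3 counts equals 2.98 and 4.56 CPM. Its level in mature oligodendrocytes was 1.62 and 1.40 CPM, a log2 ratio of -0.21 (-0.87 to 0.44), beside 0.933 and 0.833 CPM for the 7 members together in that class. The floor in endothelial cells lies above the level of Gbp11 in mature oligodendrocytes, so the 2 classes cannot be ranked for Gbp11. Gbp2b had no UMI in any kept cell. Gbp8 had 4 and 2 UMIs and Gbp10 had 1 and 2.

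The cell with the most Gbp UMIs outside the 6 classes was in the Foxp3-DTR+ library. It held 37 Gbp UMIs of 2518 UMIs in total, among them 12 of Gbp5, 10 of Gbp2, 7 of Gbp3 and 6 of Gbp4. It also held 86 UMIs of Cxcl10, 42 of Rsad2, 38 of Cxcl9, 27 of Ifit2 and 25 of Isg15. Its Cldn5 count of 1 left it without a class. Of the rest of the endothelial list it held 11 UMIs of Ly6c1, 2 of Itm2a and 1 each of Pecam1, Flt1 and Slco1a4. The genes named here were chosen after their values were seen. Cells without a class held 61 and 102 Gbp UMIs where no marker reached 2 UMIs, so this cell gave 37 of the latter.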
